A study of Mus musculus with 3 samples.

Results

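Cyp1b1 encodes a cytochrome P450 enzyme whose transcription is classically switched on by the aryl hydrocarbon receptor, and it was described here together with 5 other genes of that receptor's pathway, namely Cyp1a1, Ahr, Ahrr, Arnt and Tiparp. The 6 genes were read from each probe on the array that carried their name, which gave 10 probes, out of 36335 gene names on the array and 16378 genes measured on all 3 arrays. Cyp1b1 was selected on its difference with hormone on these same arrays, and the other genes because they belong to the receptor's pathway. The values of the 6 genes are therefore a description and carry no test.

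Messenger RNA was measured on 1-colour Agilent mouse arrays in mpkDCT cells, a line of mouse distal convoluted tubule, a segment of the nephron. In each group the cells carried a CRISPR-Cas9 knockout of Cyp27b1, the enzyme that turns 25(OH)D3 (calcidiol) into 1,25(OH)2D3 (calcitriol), the hormone form that binds the vitamin D receptor most tightly. The comparisons ask which genes respond to either compound in cells that lack this enzyme. The groups were vehicle, 1,25(OH)2D3 at 1e-07 M and 25(OH)D3 at 1e-07 M, with 24 h of exposure and 1 array per group. The medium was free of phenol red and held 2% charcoal-stripped serum from 24 h before treatment onwards. The controls carried the knockout too, so the arrays hold no cells with an intact Cyp27b1, and the sources used here do not say whether the knockout line was a single clone. A tag in the sample titles, siCT, is not explained there, and the free text of the 25(OH)D3 sample names that compound once with an additional hydroxyl group. The treatment tag, which names 25(OH)D3, was used.

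The aryl hydrocarbon receptor, encoded by Ahr, is a ligand-activated transcription factor of the bHLH-PAS family. Without ligand it waits in the cytoplasm bound to heat shock protein chaperones. With a ligand such as dioxin, a polycyclic hydrocarbon or a tryptophan metabolite it enters the nucleus, pairs with Arnt, and binds DNA elements with the core letters GCGTG. Cyp1a1 is the most widely used readout of an active receptor. Ahrr, a repressor that competes for Arnt, and Tiparp, an ADP-ribosyltransferase that marks the receptor for breakdown, are targets that feed back on it. Cyp1b1 differs from Cyp1a1 in that it is also expressed without added ligand in many mesenchymal and steroid-forming tissues, and its enzyme oxidises oestrogens, retinoids, fatty acids and polycyclic hydrocarbons.

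The promoter windows are shown for the receptor's core motif near the start sites of Cyp1b1 and of the targets Cyp1a1 and Tiparp. Of the 6 genes, 5 had a window in the RefSeq table of assembly GRCm38.p6. The 250 bases before the start site are printed 5′ to 3′ along the gene for Cyp1b1 (chr17:79715062-79715311, minus strand), for Cyp1a1 (chr9:57697363-57697612, plus strand) and for Tiparp (chr3:65528197-65528446, plus strand). Capitals mark the receptor core GCGTG or its reverse complement CACGC.
Cyp1b1: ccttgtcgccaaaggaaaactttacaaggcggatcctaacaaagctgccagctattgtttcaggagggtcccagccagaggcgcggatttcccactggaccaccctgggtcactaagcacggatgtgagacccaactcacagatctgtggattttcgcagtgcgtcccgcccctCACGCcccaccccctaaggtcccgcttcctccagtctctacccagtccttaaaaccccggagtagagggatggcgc
Cyp1a1: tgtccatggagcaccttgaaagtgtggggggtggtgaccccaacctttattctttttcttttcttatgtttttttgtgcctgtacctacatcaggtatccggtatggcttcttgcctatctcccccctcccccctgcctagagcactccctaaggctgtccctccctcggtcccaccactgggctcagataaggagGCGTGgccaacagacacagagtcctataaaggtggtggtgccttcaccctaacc
Tiparp: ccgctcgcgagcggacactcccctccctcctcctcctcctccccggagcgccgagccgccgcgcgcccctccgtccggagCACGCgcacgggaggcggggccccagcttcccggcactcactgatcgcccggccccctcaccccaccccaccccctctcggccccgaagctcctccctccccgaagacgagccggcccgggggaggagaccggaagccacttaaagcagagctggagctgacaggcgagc
Each of these windows held 1 core, which began at -76 in Cyp1b1, -54 in Cyp1a1 and -170 in Tiparp, counted from the start site. The Arnt window also held 1 core, and the Ahrr window held 3. The core is short and common: 32.4% of 32851 promoter windows of the same length (300 bases, with 50 of them after the start site) held at least 1 on either strand, and 3.91% held 3 or more. The well-studied elements of Cyp1a1 lie in an enhancer farther upstream than this window. A vitamin D response element of the DR3 type, a direct repeat of AGGTCA with 3 bases between the repeats, searched on both strands with at most 2 mismatches, was found in none of the 5 windows and in 3.06% of all windows.

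The share of spots well above background, which is the scanner's own call of a detectable signal, lay between 49.70% and 50.98% on the 3 arrays. The lowest signal so called was 13.36 with vehicle, 13.82 with calcitriol and 17.85 with calcidiol. Differences are given on the log2 scale after each array was set to its 75th percentile. Values after ± are the scanner software's technical error, which leaves out variation between cultures. With 1 array per group no difference had a replicate check, and a size of 2-fold was used to describe genes. In a bulk extract, more expressing cells and more RNA per cell cannot be told apart.

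The defining markers of the labelled cell type were mostly undetected. Of 5 general epithelial markers (Epcam, Cdh1, Krt8, Krt18 and Krt19), 0 were well above background on any array, and their highest signal was 10.2. Of 7 distal convoluted tubule markers, 1 was detected with vehicle and 2 with each hormone, namely Wnk4 and, with hormone, Pvalb. Slc12a3, the thiazide-sensitive transporter that defines the segment, did not exceed a signal of 5.84. Summed signals of the lists are given before scaling between arrays. Of 5 fibroblast markers, Col1a1 and Dcn were detected, and the summed signal of the list was 415 with vehicle, 145 with calcitriol and 254 with calcidiol. Of 5 leukocyte markers, 4 were detected on each array, namely Ptprc, Cd68, Itgam and Cd3e. Each of these also had at least 1 probe detected on no array, in Ptprc 4 of 5. The leukocyte list summed to 1620, 1490 and 1680 on the same arrays. The endothelial list, in which Kdr alone was detected, summed to 134, 78.5 and 122. For the proximal tubule list, in which Aqp1 alone was detected, the sums were 1200, 775 and 868. The collecting duct list, in which Aqp2 alone was detected, summed to 124, 92.6 and 102, and the distal convoluted tubule list to 134, 116 and 118.

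Cyp1b1 was higher with both hormones. Its probe (A_51_P255456, chromosome 17, 80106547 to 80106606, minus strand, mm9) had a processed signal of 40.7 ± 5.14 with vehicle, 513 ± 51.4 with calcitriol and 178 ± 18.3 with calcidiol. The order was calcitriol, calcidiol, vehicle, and each step was many times the technical error. The differences came to 3.62 ± 0.23 with calcitriol (12.3-fold), 2.02 ± 0.23 with calcidiol (4.06-fold) and 1.60 ± 0.21 for calcitriol over calcidiol (3.04-fold). Among genes detected on both arrays of a comparison, 5 of 16653 had a higher value with calcitriol against vehicle. The counts were 20 of 16646 with calcidiol against vehicle and 21 of 16499 in the direct comparison. These ranks leave out genes undetected on 1 of the arrays, such as the P450 gene Cyp24a1 against vehicle. Its bounds were at least 398-fold higher with calcitriol and at least 20-fold higher with calcidiol. The 2 hormone comparisons share the vehicle array, so a low vehicle signal would raise both. On the log2 scale the calcidiol difference of Cyp1b1 was 0.558 of its calcitriol difference.

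A single probe stands behind the Cyp1b1 values, and its first 30 of 60 bases are shown because each value rests on this sequence.
Cyp1b1 probe: actacattaagcagatagatcaccatgtat
The spot lies 7 rows or columns from the edge of the array. Within 5 rows and columns around it, 48 detected spots had a median difference of 0.12 for calcitriol against vehicle, with a range from -0.59 to 1.86. For calcidiol against vehicle 49 had a median of 0.01, with a range from -0.64 to 2.47, so the highest neighbour lay above Cyp1b1. After subtraction of these medians Cyp1b1 stood at 3.50 and 2.01. The vehicle signal was 3.05 times the lowest signal well above background, so the size of both differences rests on a dim value. Under 10 alternative settings the calcitriol difference ran from 2.33 to 3.75 and the calcidiol difference from 1.11 to 2.05, each past 2-fold. Keeping outlier spots, leaving out the edge and averaging over probes could not change these values. Cyp1b1 has 1 probe, without an outlier flag, and the edge cut took only the outermost 6 rows and columns. Before scaling between arrays, each marker list with a detected gene had its lowest summed signal with calcitriol, where Cyp1b1 was highest. After scaling, 2 of the 4 leukocyte genes measured for calcitriol against vehicle were above 0 and 2 below. The genes measured from the other lists were below 0. For calcitriol against calcidiol both distal convoluted tubule genes measured were above 0. The epithelial list was undetected throughout. The part of these markers in the Cyp1b1 values was not tested.

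**Figure D1:**
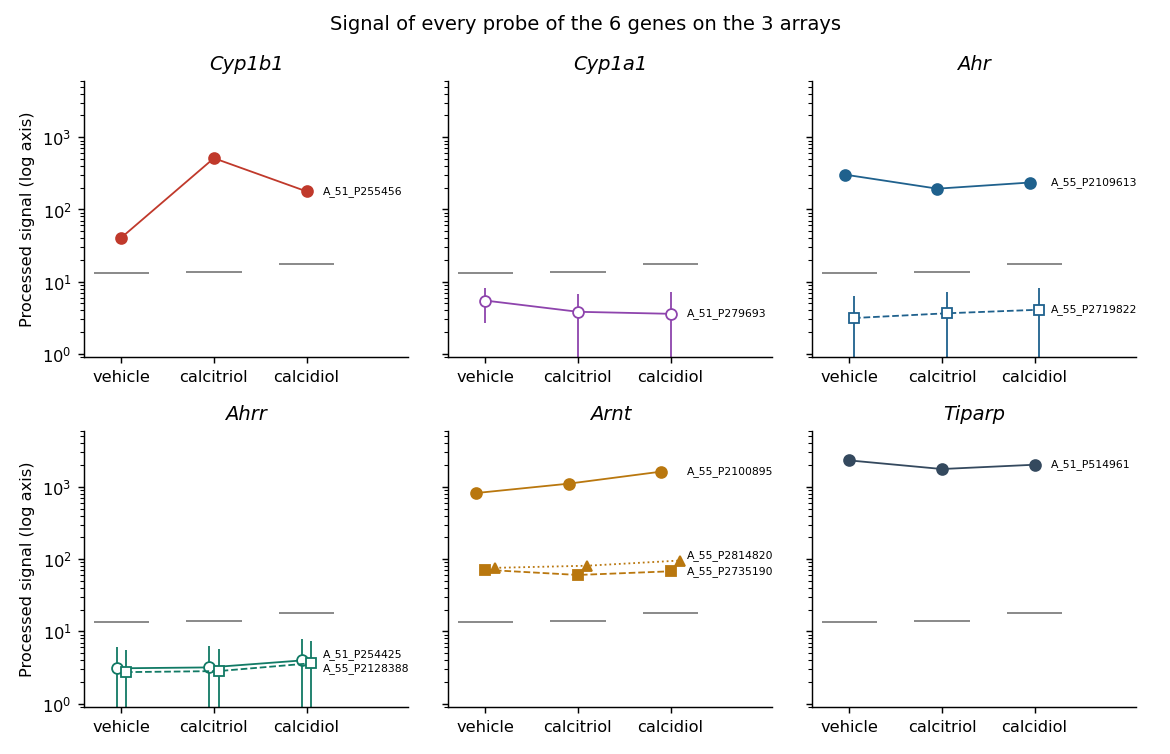
Processed signal (log axis, scanner units) of the 10 probes of the 6 genes on the vehicle, calcitriol and calcidiol arrays. Filled points were well above background and open points were not, bars are the scanner's technical error (those that reach the axis continue below it), lines join the values of 1 probe, and grey marks show the lowest signal well above background on each array; Cyp1b1 goes from 40.7 to 513 and 178, while Cyp1a1 and Ahrr lie under the grey marks.

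Cyp1a1, the other inducible family 1 enzyme described here and the usual readout of receptor activity, was not detected. Its probe (A_51_P279693, chromosome 9, 57551535 to 57551594, plus strand, mm9) gave signals of 5.48 with vehicle, 3.83 with calcitriol and 3.59 with calcidiol, with technical errors of 2.79, 2.93 and 3.60. None of these was well above background, so no fold is given. Its probe had the lowest GC content of the 10, at 25.0% against a highest of 45.0%, as its first 30 of 60 bases show.
Cyp1a1 probe: gataatttgctagtgtaacaaagaagattc
Cyp1a2, the third family 1 enzyme and a largely hepatic one, was also not well above background, at 3.17, 3.34 and 3.77.

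Ahrr, the repressor that active receptor induces, was likewise undetected by both of its probes. A_51_P254425 (chromosome 13, 74348566 to 74348612, minus strand, mm9) gave 3.08 with vehicle, 3.17 with calcitriol and 3.96 with calcidiol. A_55_P2128388 (chromosome 13, 74350685 to 74350744, minus strand) gave 2.73, 2.82 and 3.62. The array therefore gives no level for Ahrr or Cyp1a1 with or without hormone, and a level below the detection limit cannot be told from absence.

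Tiparp, the feedback ADP-ribosyltransferase, was detected on the 3 arrays, and its value was lower with both hormones. Its probe (A_51_P514961, chromosome 3, 65358749 to 65358808, plus strand, mm9) gave 2330 ± 233 with vehicle, 1770 ± 177 with calcitriol and 2030 ± 203 with calcidiol. The order was vehicle, calcidiol, calcitriol, the reverse of Cyp1b1. The differences were -0.43 ± 0.20 with calcitriol (1.34-fold lower) and -0.31 ± 0.20 with calcidiol (1.24-fold lower). The hormones differed by -0.12 ± 0.20, which is within the technical error, and the sign of that difference turned in 1 of 10 alternatives.

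Ahr, the receptor itself, also had its highest signal with vehicle. The detected probe (A_55_P2109613, chromosome 12, 36182724 to 36182783, minus strand, mm9) gave 304 ± 30.6 with vehicle, 194 ± 19.8 with calcitriol and 236 ± 24.0 with calcidiol. Relative to vehicle it stood at -0.68 ± 0.21 with calcitriol (1.60-fold lower) and at -0.47 ± 0.21 with calcidiol (1.39-fold lower). Among all genes measured, 4.498% lay below its calcitriol value and 2.703% below its calcidiol value. The hormones differed by -0.20 ± 0.21, within the technical error. A second Ahr probe, A_55_P2719822 (36199083 to 36199142 on the same chromosome), was below background on the 3 arrays, at 3.14, 3.65 and 4.09.

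Arnt, the partner that Ahr needs to bind DNA, gave values that depended on the probe. The brightest probe (A_55_P2100895, chromosome 3, 95301081 to 95301140, plus strand, mm9) gave 823 ± 82.4 with vehicle, 1110 ± 111 with calcitriol and 1630 ± 163 with calcidiol. It stood at 0.40 ± 0.20 with calcitriol and at 0.87 ± 0.20 with calcidiol, but its spot lies in the outermost column of the array. The probe at 95296147 to 95296206 gave 71.2, 60.4 and 67.9, and differences of -0.27 ± 0.22 and -0.18 ± 0.23. The probe at 95278469 to 95278528 gave 75.8, 81.1 and 95.7, and differences of 0.06 ± 0.22 and 0.22 ± 0.22. These last probes differed from each other in sign with each hormone, and the mean over the 3 probes put Arnt at 0.06 with calcitriol and 0.31 with calcidiol.

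Cyp1b1 was the 1 gene past 2-fold among the 4 of the 6 that were detected. With calcitriol against vehicle, 0.961% of 16653 genes were past 2-fold upwards and 1.63% past 2-fold downwards. With calcidiol against vehicle these shares were 0.853% and 0.144% of 16646 genes, and with calcitriol against calcidiol 0.467% and 1.41% of 16499 genes. In each of these comparisons Cyp1b1 was past 2-fold and Ahr, Arnt and Tiparp were not, under the main setting and under the 10 alternatives. Because Cyp1b1 was selected on its difference, nothing is read from the count.

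**Figure D2:**
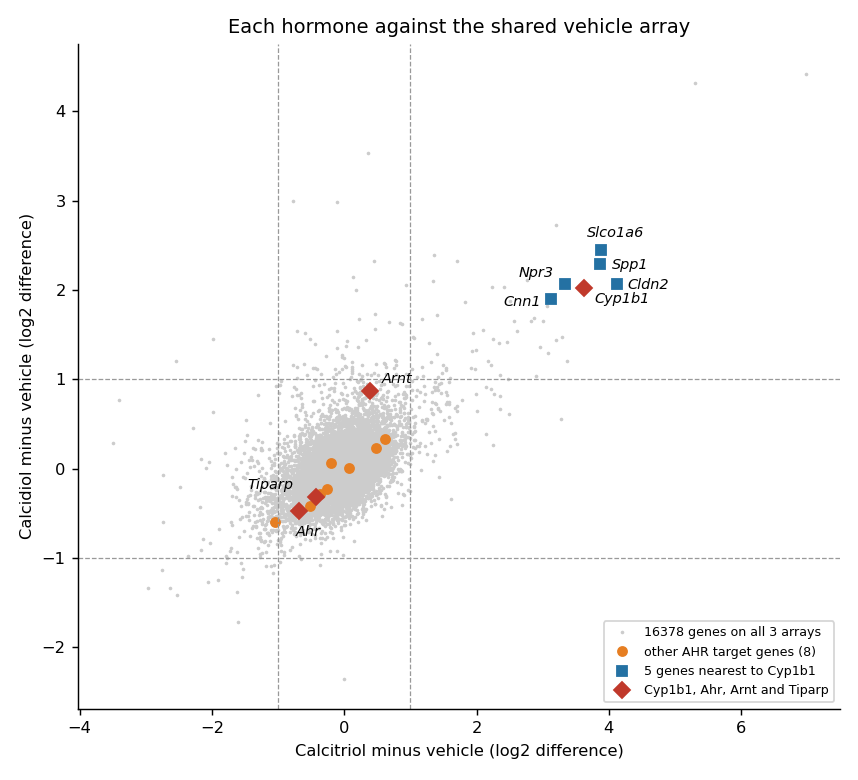
Log2 difference from vehicle with calcitriol (horizontal axis) and calcidiol (vertical axis) for the 16378 genes measured on all 3 arrays, with dashed lines at 2-fold; both axes share the vehicle array. Cyp1b1 stands at 3.62 and 2.02 with the 5 genes nearest to it, whereas Ahr, Arnt, Tiparp and 8 other target genes of the receptor lie in or near the main cloud.

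Other target genes of the receptor were taken from 2 lists of textbook targets. The enzyme and transporter list held 11 genes, of which 10 were on the array and 5 were below background throughout, including Nqo1, a quinone reductase, at 2.81, 2.98 and 3.76. The 4 genes measured for calcitriol against vehicle were all below 0, with a median of -0.31 beside 0.00 for all genes, and 0 passed 2-fold. For calcidiol against vehicle 5 were measured, with a median of -0.23 beside -0.01, and again 0 passed 2-fold. With calcitriol 4 of 4 stayed below 0 under each scaling alternative, although the other probe of Nfe2l2 gave 0.09. Over all genes 50.7% were below 0 under the main setting.

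Among the 4 genes of that list detected with both calcitriol and vehicle, Cyp2s1, an extrahepatic P450, had the lowest value. Its signal was 64.9 with vehicle, 46.1 with calcitriol and 52.6 with calcidiol, or -0.53 ± 0.23 and -0.41 ± 0.24. Abcg2, a drug efflux pump, gave 2100, 1660 and 1870, or -0.37 ± 0.20 and -0.28 ± 0.20. The vehicle array was highest for both genes, and both hormone arrays differed from it by less than 2-fold. Nfe2l2, the regulator of antioxidant genes, stood at -0.26 ± 0.20 and -0.23 ± 0.20. Ugt1a6b, a glucuronosyltransferase whose exons overlap those of its Ugt1a neighbours, stood at -0.20 ± 0.25 and 0.07 ± 0.24, within the technical error. Aldh3a1, an aldehyde dehydrogenase, gave 40.9 with vehicle, 9.80 with calcitriol (not well above background) and 76.8 with calcidiol. It was at least 3.03-fold lower with calcitriol than with vehicle and at least 5.27-fold lower than with calcidiol, from a spot 2 lines from the array edge.

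The list of other targets held 10 genes, of which 5 were below background throughout (Serpinb2, Ereg, Ptgs2, Scin and Il22). Of the 4 measured for calcitriol against vehicle, 0 were past 2-fold upwards and 1 was past it downwards, with a median of 0.28 beside 0.00 for all genes. Here 3 of 4 were above 0, under the main setting and each scaling alternative. Over both target lists 3 genes were above 0 and 5 below. For calcidiol 5 were measured, 0 passed 2-fold and the median was 0.00. Fgf21, a secreted metabolic hormone, was the gene past 2-fold, with signals of 108, 53.6 and 77.1. Its calcitriol difference of -1.04 ± 0.22 (2.06-fold lower) passed 2-fold in 4 of 10 alternatives, with a range from -1.04 to -0.53. These 4 kept the main scaling, and each alternative with another scaling or an offset put Fgf21 under 2-fold. Socs2, a suppressor of cytokine signalling, had the highest value of the list, with signals of 280, 438 and 381. It stood at 0.61 ± 0.20 and 0.33 ± 0.20 by its brightest probe and at 0.39 and -0.07 by its others. Nedd9, a scaffold protein of focal adhesions, stood at 0.48 ± 0.20 and 0.23 ± 0.20.

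The receptor's chaperones and coregulators were all detected, 10 of 10. Nrip1, a corepressor of nuclear receptors that also binds the receptor, gave 523 with vehicle, 1170 with calcitriol and 909 with calcidiol. It was the 1 gene of the 10 past 2-fold, where 0.961% of all genes were past it upwards with calcitriol. Nrip1 stood at 1.13 ± 0.20 with calcitriol and 0.69 ± 0.20 with calcidiol. Its other probes gave 1.18 and 0.68, and it passed 2-fold with calcitriol in 10 of 10 alternatives. With calcitriol the lowest was Ncoa3, a coactivator, at -0.46, and it stood at -0.38 with calcidiol, where the kinase gene Src was lowest at -0.48. The chaperone subunit Hsp90ab1 stood at 0.11 and -0.14. The list's median was 0.05 with calcitriol and -0.05 with calcidiol, beside 0.00 and -0.01 for all genes.

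Among 13 bHLH-PAS relatives of Ahr and Arnt, 8 were measured with each hormone against vehicle and 0 passed 2-fold. Over all genes only 0.961% were past 2-fold upwards and 1.63% downwards with calcitriol, so 0 of 8 does not set the list apart. With calcitriol 8 of 8 were below 0, beside 50.7% of all genes, with a median of -0.25 beside 0.00 for all genes. After median centring, which moved the median of all genes to 0.12, the list had 5 of 8 below 0, and the other scaling alternatives left 6 to 8 below 0. The count rests on the brightest probes: the other probe of Arntl2 gave 0.42 against -0.19, and the other probes of Clock a mean of 0.28 against -0.09. With calcitriol the lowest was Epas1, which encodes HIF-2alpha. Its signals were 943, 606 and 874, or -0.67 ± 0.20 with calcitriol and -0.22 ± 0.20 with calcidiol, where Npas3, at -0.56, was lowest. Arnt2, a close relative of Arnt, was highest, at -0.02 with calcitriol, and stood at -0.28 with calcidiol. Hif1a, the other main hypoxia factor, stood at -0.04 and 0.01.

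Enzymes that make or use tryptophan metabolites, which include ligands of the receptor, were mostly undetected: 7 of 12 were below background throughout. The 3 measured with calcitriol ran from -0.13 (Afmid, a formamidase) to 0.11 (Kyat1, a kynurenine aminotransferase). Tph1, a tryptophan hydroxylase, gave 31.4 with vehicle, 8.60 with calcitriol (not well above background) and 25.6 with calcidiol, and was at least 2.32-fold lower with calcitriol than with vehicle. The 8 genes for P450 electron donors and haem synthesis or breakdown were measured in full, and 0 passed 2-fold. Por, the reductase that passes electrons to microsomal P450s, was highest, at 0.34 ± 0.20 and 0.38 ± 0.20, and Cyb5a, a cytochrome b5, lowest, at -0.22 and -0.24.

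The relatives of Tiparp in the PARP family were measured in full, 13 of 13, with medians of -0.04 with calcitriol and -0.01 with calcidiol. None passed 2-fold against vehicle, and 1 was at least 2-fold lower with calcitriol than with calcidiol. This was Parp14, an interferon-responsive ADP-ribosyltransferase, with signals of 1290, 673 and 1570. Its brightest probe lies 5 lines from the array edge and gave -1.15 ± 0.20 for calcitriol against calcidiol and -0.97 ± 0.20 for calcitriol against vehicle, while its other probe gave 0.37 and 0.33. The direct difference passed 2-fold in 7 of 10 alternatives, with a range from -1.48 to 0.37. It did not pass with median centring, with the array edge left out or with the mean over probes. Parp1, the main DNA repair enzyme of the family, stood at 0.25 and -0.12.

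**Figure D3:**
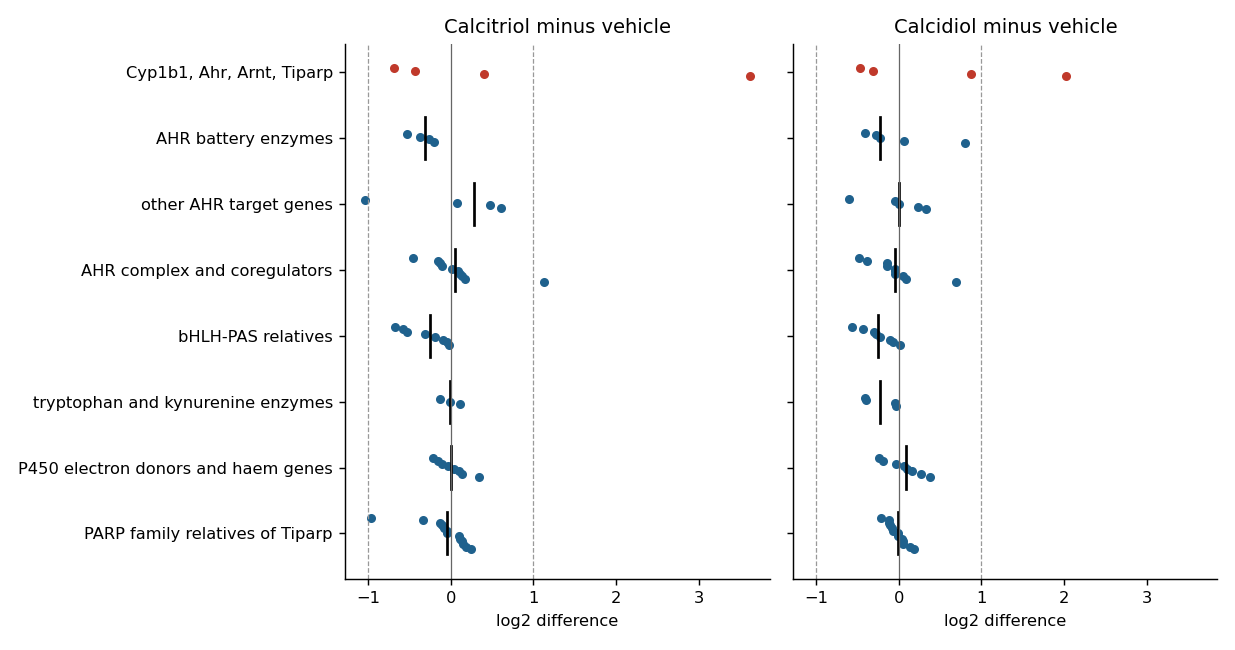
Log2 difference from vehicle with calcitriol (left) and calcidiol (right) for each gene measured, by list; each point is 1 gene, black bars are list medians and dashed lines mark 2-fold. Cyp1b1 stands apart at 3.62 and 2.02, the enzyme list has a median of -0.31 with calcitriol, and Nrip1 among the coregulators and Fgf21 among the other targets are past 2-fold with calcitriol.

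The detected genes of the receptor pathway did not share 1 order of the arrays. Cyp1b1 was highest with calcitriol and lowest with vehicle, and so were Socs2 and Nedd9 among the targets and Nrip1 among the coregulators, with smaller differences. For Socs2 this rests on the brightest probe, since the mean of its others was 0.39 with calcitriol and -0.07 with calcidiol. In Nedd9 the steps from vehicle to calcidiol (0.23) and on to calcitriol (0.25) were close to the technical error of 0.20. Ahr, Tiparp, Abcg2, Cyp2s1 and Fgf21 were highest with vehicle. Among these the calcitriol signal was lowest, but for Ahr, Tiparp, Abcg2 and Cyp2s1 the step between calcitriol and calcidiol (-0.20, -0.12, -0.09 and -0.11) was within the technical error. Arnt by its brightest probe and Aldh3a1 were highest with calcidiol. Cyp1a1, Ahrr, Cyp1a2 and Nqo1, targets often read with Cyp1b1, were not well above background on the 3 arrays and so could not be set against it.

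Cyp1b1 was then set beside the rest of the cytochrome P450 superfamily. Of 97 family genes on the array, 72 were below background on the 3 arrays. Of the 21 measured with calcitriol against vehicle, Cyp1b1 alone was past 2-fold upwards and Cyp2d11 alone past 2-fold downwards. Of the 19 measured with calcidiol, Cyp1b1 and Cyp2r1 were at least 2-fold higher and 0 were lower. Over all genes the shares were 0.961% upwards and 1.63% downwards with calcitriol, and 0.853% and 0.144% with calcidiol. These counts leave out genes undetected with vehicle. Of those, Cyp24a1, Cyp2j5 and Cyp2j13 had bounds past 2-fold upwards with calcitriol, and Cyp24a1 and Cyp2j13 also with calcidiol. Cyp1b1 was selected on its difference, so nothing is read from the counts. The family medians were -0.01 and -0.08, close to those of all genes.

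Cyp24a1, whose enzyme starts the breakdown of both vitamin D compounds, was the P450 gene with the highest bound. Its signal was 2.68 with vehicle (not well above background), 5440 with calcitriol and 288 with calcidiol. It was higher with calcitriol than with calcidiol by 4.32 ± 0.20, a step far larger than the 1.60 of Cyp1b1. Cyp2r1, a vitamin D 25-hydroxylase, had another order, with signals of 31.3, 42.4 and 70.1. It stood at 0.40 ± 0.27 with calcitriol and 1.05 ± 0.26 with calcidiol, and the latter passed 2-fold in 6 of 9 alternatives. Cyp2d11 gave 240, 121 and 207, and its calcitriol difference of -1.01 ± 0.21 passed 2-fold in 4 of 10 alternatives. It has 1 probe, 13 lines from the array edge, so leaving out the edge or averaging over probes does not change its value. It belongs to a subfamily of close copies between which a probe may not distinguish. Cyp2j5 and Cyp2j13, arachidonic acid epoxygenase genes, had bounds with calcitriol over vehicle of at least 3.93-fold and at least 3.61-fold.

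**Figure D4:**
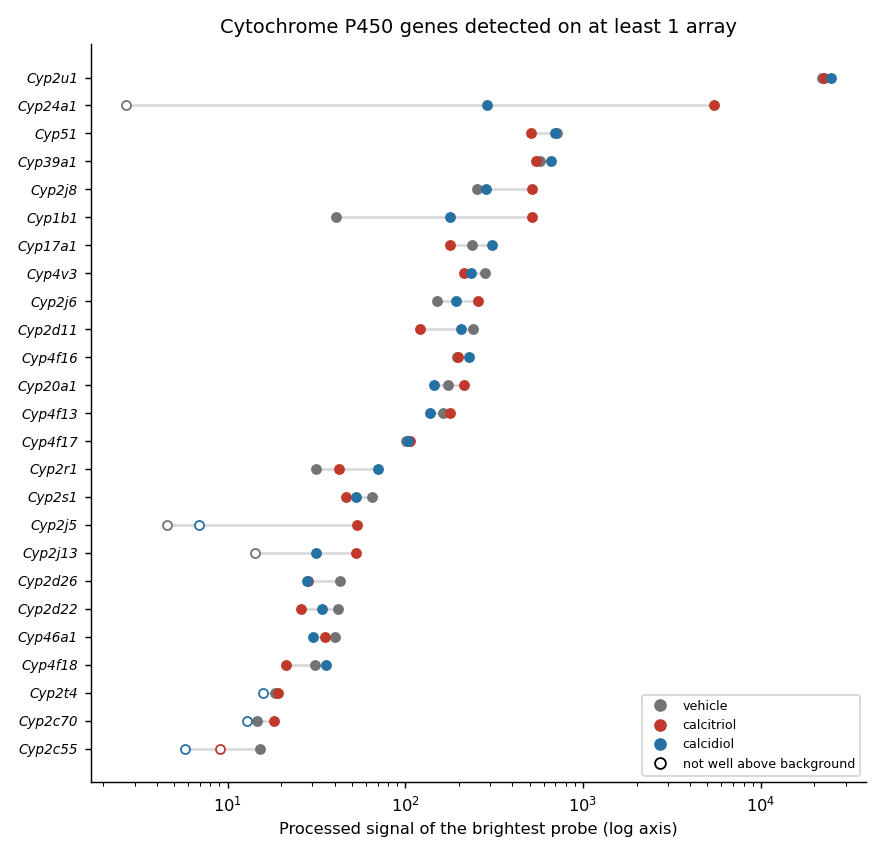
Processed signal (log axis, scanner units) of the brightest probe of each cytochrome P450 gene detected on at least 1 array, for vehicle (grey), calcitriol (red) and calcidiol (blue); open points were not well above background and lines span the 3 values of a gene. Values compare within a row, not between rows: Cyp1b1 and Cyp24a1 have the order vehicle, calcidiol, calcitriol with wide steps, and in Cyp2r1 the calcidiol array was highest.

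None of the 5 genes whose pattern lay nearest to that of Cyp1b1 was on the receptor pathway lists used here. Nothing is read from this, because listed genes were a small part of those compared. Cyp1a1, Ahrr, Cyp1a2 and Nqo1 were undetected and could not be ranked. Likeness was the Euclidean distance over the log2 differences from vehicle with calcitriol and with calcidiol, among 12822 genes with a symbol and a detected signal on the 3 arrays. Since it rests on 3 arrays and a shared vehicle, it is a description. Npr3, the natriuretic peptide clearance receptor, was nearest, with signals of 280, 2910 and 1270 and differences of 3.34 ± 0.20 and 2.07 ± 0.20, although its other probe gave 0.86 with calcitriol. Spp1, which encodes osteopontin, followed, with signals of 1690, 25100 and 8940 and differences of 3.86 ± 0.20 and 2.30 ± 0.20. Next came Cldn2, a cation-selective claudin, at 4.12 ± 0.26 and 2.07 ± 0.26, Slco1a6, an organic anion transporter, at 3.88 ± 0.26 and 2.45 ± 0.27, and Cnn1, a calponin, at 3.12 ± 0.21 and 1.90 ± 0.21. In each of the 5 the order of the arrays was that of Cyp1b1, which follows from picking genes by this distance.

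**Figure D5:**
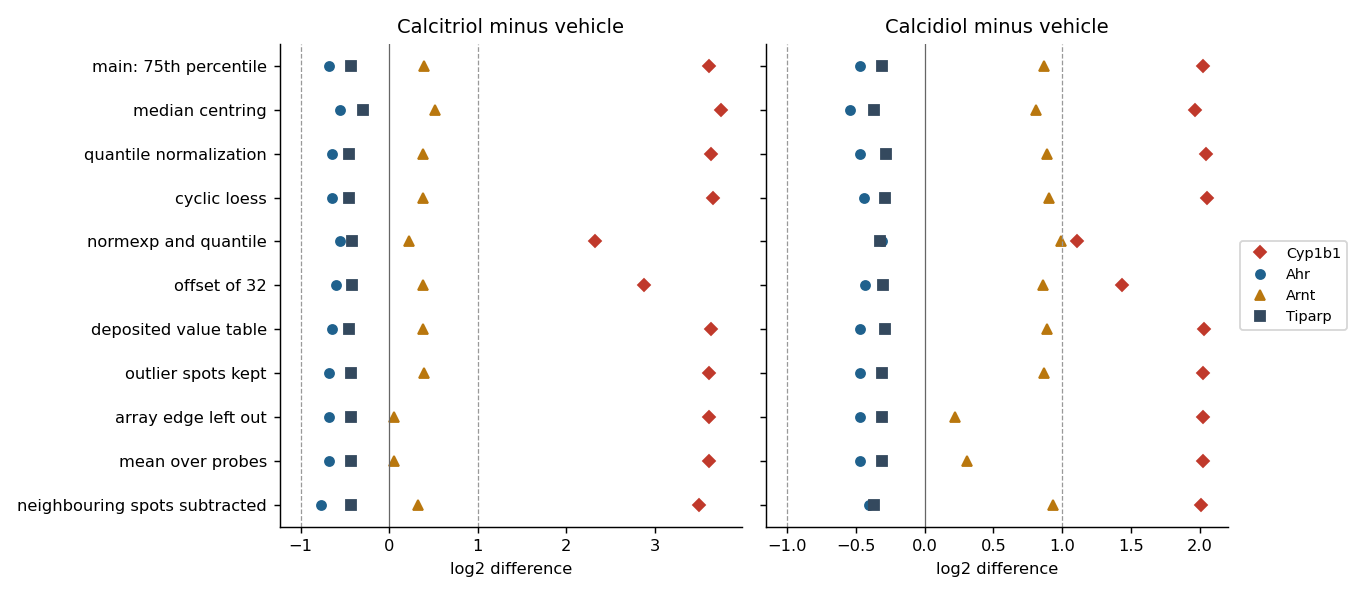
Log2 difference from vehicle with calcitriol (left) and calcidiol (right) of the 4 detected genes under the main setting and 10 alternatives; dashed lines mark 2-fold. Cyp1b1 stays above 2-fold throughout, from 2.33 to 3.75 and from 1.11 to 2.05, Ahr and Tiparp stay below 0, and Arnt comes down to 0.06 and 0.22 when spots at the array edge are left out. Keeping outlier spots, leaving out the edge and averaging over probes could not change Cyp1b1, Ahr or Tiparp.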

How the data were processed

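Total RNA carried Cy3, and each of the 3 samples was hybridised to 1 array. The deposited scanner files hold intensity on a linear scale, with background subtracted, per the file headers, by Agilent Feature Extraction 10.7.1.1 (version 9.5.1.1 per the submitters' processing notes). Per the file headers the arrays shared 1 slide and 1 scan, and probes carry mm9 coordinates. The deposited value table also holds intensity and served only as an alternative.

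Control spots were dropped, as were 1489 of 56605 probes whose spots carried an outlier flag. Signals were log2-transformed minus each array's 75th percentile (371.1, 379.8 and 400.8). Each gene took the value of its brightest probe. A difference needs a signal well above background on both arrays; otherwise a bound is given, against the higher of the lowest detected signal and the dim probe's own. Names came from RefSeq accessions (58.29% of probes), otherwise from the array. No test was run, since 1 array per group allows none. R 4.3.3, limma 3.58.1 and Python 3.11.15 were used.

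The genes, the gene lists and the naming rule were chosen with earlier results of these data known. The rule named, from each list, genes at least 2-fold apart and the highest and lowest with calcitriol, P450 genes at least 2-fold apart, and the 5 genes nearest to Cyp1b1. Other list genes named for their role (Nqo1, Cyp1a2, Abcg2, Nfe2l2, Nedd9, Hsp90ab1, Hif1a, Src, Npas3, Arntl2 and Clock) were chosen after their values were seen. Alternatives were quantile normalization, cyclic loess, median centring, normexp with an offset of 50, an offset of 32, the value table, outlier spots kept, the outermost 6 rows and columns left out, the mean over probes, other filters on dim genes and thresholds of 1.5-fold and 3-fold. Subtracting neighbouring spots was added after seeing the data. No protein sequences were compared.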

Additional observations from a re-analysis of the deposited data

How the results depend on the processing

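No paired analysis was possible because each group has 1 array, and for the same reason no replicate could be left out. The number of arrays limits the precision, and 4 of the 10 probes lay below background. The sign of the Cyp1b1, Ahr, Arnt and Tiparp differences from vehicle was kept under the 10 alternatives run. For Arnt the calcitriol difference came down to 0.06, less than the technical error of each probe. The Arnt probe at 95296147 to 95296206 had the opposite sign, at -0.27 and -0.18. Keeping outlier spots, leaving out the edge and averaging over probes could not change Cyp1b1, Ahr or Tiparp. Cyp1b1 stayed past 2-fold but was smaller where dim signals were raised. For calcitriol against vehicle it was 2.33 with normexp and 2.88 with an offset of 32, for calcidiol against vehicle 1.11 and 1.43, and for calcitriol against calcidiol 1.22 with normexp.

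Counts over all genes moved most. For calcitriol against vehicle the main counts were 160 higher and 271 lower, against 93 and 104 with normexp, 104 and 138 with the offset, 345 and 627 where 1 detected array sufficed, 563 and 1041 at 1.5-fold, and 66 and 47 at 3-fold. For calcidiol against vehicle they were 142 and 24, against 76 and 4 with normexp, 75 and 8 with the offset, 447 and 228 where 1 detected array sufficed, 87 and 10 with the dimmest genes (under the 25th percentile) removed, 472 and 221 at 1.5-fold, and 40 and 3 at 3-fold. For calcitriol against calcidiol they were 77 and 232, against 133 and 133 with median centring, 33 and 127 with normexp, 48 and 112 with the offset, 223 and 628 where 1 detected array sufficed, 357 and 915 at 1.5-fold, and 23 and 53 at 3-fold. With the dimmest genes removed 47 were higher there. Median centring moved the median of all genes to 0.12, -0.07 and 0.19 in the 3 comparisons, and took higher genes from 37.12% to 54.81% of those past 2-fold in calcitriol against vehicle (47.21% with normexp), from 85.54% to 77.63% in calcidiol against vehicle, and from 24.92% to 50% in the direct comparison.

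Among the receptor targets of both lists, the count of 1 lower with calcitriol became 0 with median centring, quantile normalization, cyclic loess, normexp, the offset, the value table and 3-fold, and 2 with detection on at least 1 array. At 1.5-fold 1 was higher with calcitriol, and 1 higher and 1 lower with calcidiol. In calcitriol against calcidiol 1 was lower with detection on at least 1 array. The thresholds and the detection rule change the counts by construction, and for the other settings the cause was not tested.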

Other observations

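Of 6 genes of the Cyp2j subfamily on the array, which encode epoxygenases of arachidonic acid, 4 were detected on at least 1 array. These genes were chosen after their values were seen. Cyp2j8 gave 252 with vehicle, 513 with calcitriol and 283 with calcidiol, a difference of 0.99 with calcitriol and 0.06 with calcidiol. Cyp2j6 gave 150, 257 and 192, or 0.74 and 0.24. Cyp2j5 gave 4.56, 53.7 and 6.92 and was well above background with calcitriol alone, so the detection rule fixed which array was its highest. Cyp2j13 gave 14.3, 52.6 and 31.6, with the vehicle value not well above background, from a spot 5 lines from the array edge. Cyp2j9 and Cyp2j11 were below background on the 3 arrays, so their order carries no information. These genes are close copies that probes may not tell apart, and no difference between the subfamily and other genes was tested. The share of all detected genes with their highest signal with calcitriol was not counted, so nothing is read from the order of the arrays in this subfamily.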
